A study of Mus musculus with 9 samples.

Results

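The genes described here encode the autophagy machinery and the lysosome, measured as mRNA in the gastrocnemius (a calf muscle) of mice given ammonium acetate or phosphate-buffered saline (PBS). They were 40 named genes, each found as a single row by its symbol among the 35275 genes of the deposited table. By role they were 5 genes of initiation, 5 of nucleation, 4 of membrane expansion, 8 of the conjugation and ATG4 protease machinery, 5 of the ATG8 family, 3 cargo receptors, 2 transcription factors and 8 lysosomal genes. The ammonium acetate group held 5 libraries (numbers 4 to 8) and the PBS group 4 libraries (numbers 4, 5, 7 and 8). The mice were wild type on a C57BL/6J background and 8 to 10 weeks old. Each mouse carried an Alzet mini-osmotic pump for 4 weeks, which released either ammonium acetate, 2.5 mmol per kg daily, or PBS, so the controls had the implant too. The labels give neither the ammonia concentration reached in blood or muscle nor the sex of the mice, and they do not state that each library came from its own mouse, so a p-value here reflects library-to-library spread, which may be technical.

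Autophagy encloses parts of the cytoplasm in a double membrane, the autophagosome, and delivers them to the lysosome for breakdown. The ULK1 kinase complex starts the process, the class III PI3-kinase complex around beclin 1 marks the membrane, and ubiquitin-like conjugation attaches ATG8 proteins (LC3 and GABARAP) to it, to which cargo receptors such as p62 bind. In skeletal muscle the pathway clears damaged mitochondria and protein aggregates, it is engaged in several forms of atrophy, and ammonia is known as an inducer of autophagy in cultured cells and in muscle. Much of its control acts on proteins (phosphorylation, lipidation, turnover), which mRNA levels do not measure.

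Values are FPKM, fragments per kilobase of gene scaled to the fragments counted in the library, as the authors deposited them. The libraries stood for 24930547 to 41780251 reads. The tissue label matched the data: summed FPKM of 10 myofibre markers was 70827 to 98135 in ammonium acetate and 69057 to 81486 in PBS. By gene length, ammonium acetate libraries 6 and 8 leaned furthest towards short genes. Genes under 1000 bases lay 0.20 and 0.33 (log2, median) above the mean of all 9 libraries in them. Genes over 5000 bases lay 0.42 and 0.27 below it (-0.42 and -0.27). Others leaned the opposite way: genes over 5000 bases lay 0.29 above it in PBS 8, 0.15 in ammonium acetate 4 and 0.13 in PBS 7. Spearman's rho of these deviations with length was -0.50 and -0.51 in ammonium acetate 6 and 8. It was 0.47 in ammonium acetate 4, 0.46 in PBS 8 and 0.39 in PBS 7. Markers of cells other than fibres were mostly lower. The summed FPKM of 10 endothelial markers was 65.5 to 131 in ammonium acetate and 122 to 140 in PBS, that of 11 macrophage markers was 59.4 to 81.0 in ammonium acetate and 41.5 to 109 in PBS, and no marker was at 0 in all libraries. That of 5 erythroid markers was 108 to 164 in ammonium acetate and 167 to 221 in PBS, with groups that did not overlap. All 9 markers of fibro-adipogenic progenitors and 4 of 4 tested adipocyte markers were lower in ammonium acetate. The summed FPKM of 5 adipocyte markers was however similar, 176 to 294 in ammonium acetate (median 219) and 193 to 317 in PBS (median 213). Going the other way, 2 of 3 tested neutrophil markers and 6 of 6 skin markers were higher. Neutrophil markers were at a low level and summed to 2.85 to 7.48 FPKM in ammonium acetate and 0.818 to 4.45 in PBS. Skin markers summed to 74.5 FPKM in ammonium acetate 5 and to at most 2.05 in any other library. In bulk tissue, fewer cells of a type and less RNA per cell cannot be told apart. Log2 fold changes without libraries 6 and 8 stand beside the value from all libraries for the genes that these moved most. That setting leaves in place the libraries that leaned towards long genes.

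As a set, the autophagy and lysosome genes lay at nearly the same level in both groups. Of the 40 genes, 20 were higher and 20 lower in ammonium acetate, with a median log2 fold change of 0.01 beside -0.03 over all 11337 genes tested. No member passed an adjusted p of 0.05 by limma with Benjamini-Hochberg adjustment over all genes (smallest adjusted p = 0.527), and neither did any other gene (0% called). At an unadjusted p under 0.05 there were 3 members (7.5%), where 8.57% of all tested genes were called, so the members' share was near the background. These were Atg101 and Gabarapl2, both higher (3.21% of all genes called in that direction), and Atg2a, lower (5.36% in that direction). The groups did not overlap in 2 members, Atg101 and Gabarapl2, both higher, where 1.25% of all genes were separate and higher and 0.873% separate and lower.

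The intervals show how large a change these libraries could have missed. The 95% interval of the log2 fold change stayed within a 1.5-fold change either way for 34 of the 40 members and reached a 2-fold change for 0. The fewest reads of any member in a library were 147, for Tfe3.

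**Figure D1:**
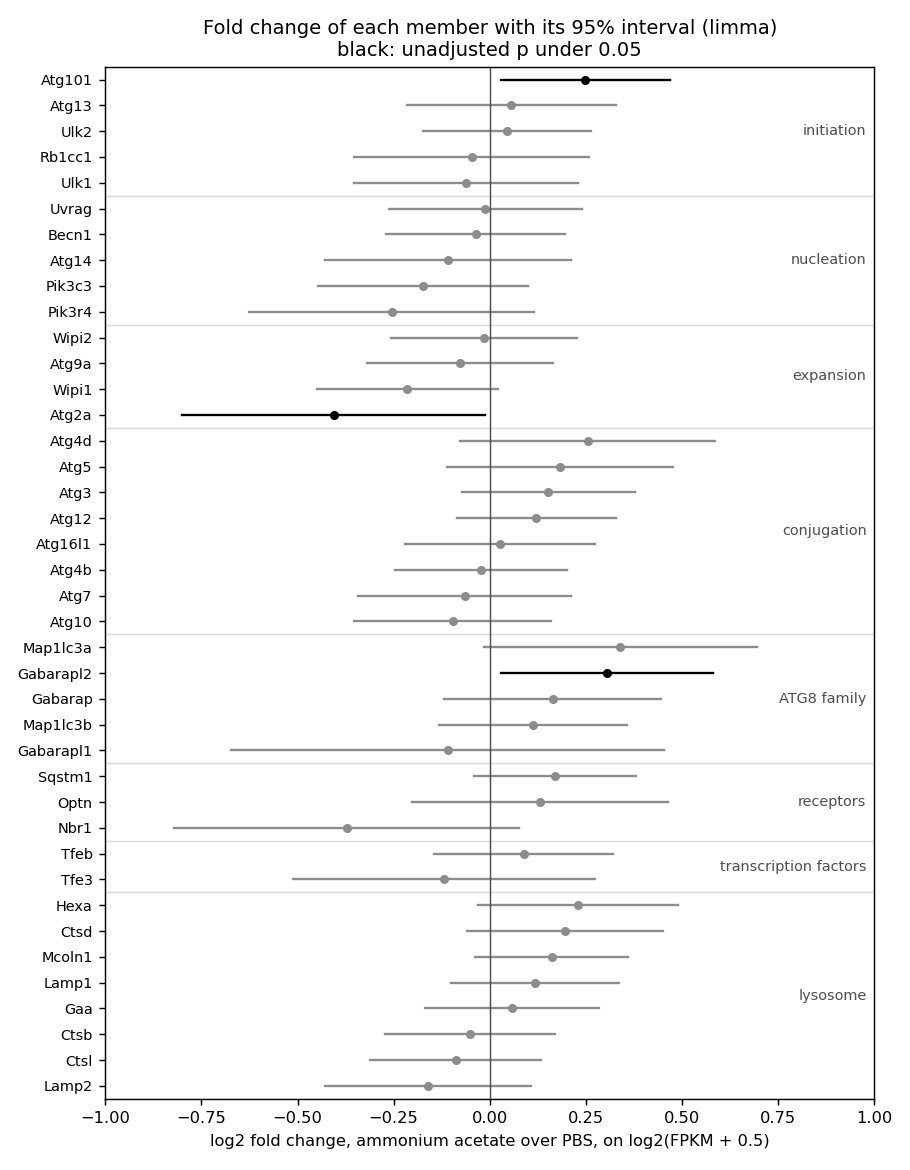
Log2 fold change (ammonium acetate over PBS, horizontal axis, on log2(FPKM + 0.5)) of each of the 40 genes, with its 95% interval from limma, ordered by role and then by size. Intervals of Atg101, Gabarapl2 and Atg2a (black) exclude 0 before adjustment and those of the other 37 genes do not.

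Initiation genes were well expressed, and Atg101 differed most among them. Atg101 (ENSMUSG00000037204, chromosome 15, 101284301 to 101290934, plus strand, mm10) encodes a subunit that stabilises ATG13 in the ULK1 complex. It measured 24.3, 22.0, 25.7, 22.7 and 29.1 FPKM in ammonium acetate libraries 4 to 8, against 20.8, 21.2, 21.5 and 19.2 FPKM in PBS libraries 4, 5, 7 and 8. Every ammonium acetate library lay above every PBS library, the nearest pair being 22.0 and 21.5. The log2 fold change of Atg101 was 0.25 (standard error 0.10, interval 0.03 to 0.47, limma adjusted p = 0.527). Leaving out ammonium acetate 6 and 8 gave 0.15 and removing the trend of each library with gene length gave 0.14, and both end its unadjusted call.

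The other initiation genes differed by less than their spread. Ulk2, a kinase paralogous to ULK1 and the most abundant member of the complex here, had 38.1, 35.1, 32.4, 28.7 and 34.1 FPKM in ammonium acetate, against 30.7, 31.3, 35.3 and 32.9 FPKM in PBS. The lowest and the highest of its 9 values were both ammonium acetate libraries (7 and 4). Ulk1, the kinase that receives signals from mTORC1 and AMPK, averaged 22.1 ± 3.47 FPKM in ammonium acetate (SD, n = 5) and 23.1 ± 3.25 in PBS (SD, n = 4), a log2 fold change of -0.06 (interval -0.35 to 0.23). Atg13, the adaptor of the complex, and Rb1cc1, which encodes the scaffold FIP200, had log2 fold changes of 0.06 and -0.05. Ulk1 and Rb1cc1 stood at 0.06 and 0.04 without ammonium acetate 6 and 8.

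All 5 nucleation genes were lower in ammonium acetate, with a median log2 fold change of -0.11, and 0 of them reached an unadjusted p under 0.05. They were among the members of lowest level, between 2.56 FPKM for Atg14 and 6.86 FPKM for Becn1 over the 9 libraries. Becn1, beclin 1, the regulatory core of the PI3-kinase complex, had 7.35, 6.90, 5.81, 6.22 and 7.67 FPKM in ammonium acetate, against 6.76, 6.89, 6.91 and 7.24 FPKM in PBS. The PBS values of Becn1 lay inside the ammonium acetate range, and its log2 fold change was -0.04. Pik3r4, the VPS15 subunit that anchors the lipid kinase, averaged 2.65 ± 0.598 FPKM in ammonium acetate and 3.24 ± 0.596 in PBS (log2 fold change -0.26, interval -0.63 to 0.12, and -0.05 without libraries 6 and 8). Pik3c3, the lipid kinase VPS34 itself, averaged 5.22 ± 0.801 FPKM in ammonium acetate and 5.92 ± 0.466 in PBS, and its 2 lowest values were ammonium acetate 8 (4.18) and 6 (4.81); its log2 fold change was -0.17, and -0.05 without these. Atg14, which directs the complex to autophagosomes, and Uvrag, which takes its place in a complex that acts on endosomes, had log2 fold changes of -0.11 and -0.01. Without ammonium acetate 6 and 8 the median of the 5 was -0.05 and each was still below 0. With the length trend removed, Becn1 and Uvrag lay above 0 (0.07 and 0.04), as they did with median-ratio scaling (0.01 and 0.03).

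The 4 expansion genes were lower as well, with a median of -0.15. Atg2a (ENSMUSG00000024773, chromosome 19, 6241668 to 6262335, plus strand) encodes a lipid transfer protein that feeds the growing membrane. It had 5.59, 3.97, 2.82, 4.64 and 2.78 FPKM in ammonium acetate, against 5.25, 5.53, 4.83 and 5.39 FPKM in PBS. Ammonium acetate 6 and 8 lay at the bottom while ammonium acetate 4 exceeded every PBS library, so the groups overlapped. The log2 fold change of Atg2a was -0.41 (standard error 0.18, limma adjusted p = 0.527), -0.14 without libraries 6 and 8 and -0.20 with the length trend removed, and both end its unadjusted call. Wipi1, a reader of the lipid mark, averaged 18.9 ± 1.64 FPKM in ammonium acetate and 22.1 ± 2.63 in PBS (log2 fold change -0.21, interval -0.45 to 0.02, and -0.14 without libraries 6 and 8). Its 5 ammonium acetate values ran from 16.2 to 20.0, PBS 5 (24.6), PBS 8 (24.1) and, narrowly, PBS 7 (20.1) stood above them, and PBS 4 (19.5) lay within. Atg9a, the membrane protein of the vesicles that seed autophagosomes, had 27.6, 24.7, 20.2, 22.7 and 21.2 FPKM in ammonium acetate, against 23.8, 23.6, 27.9 and 22.7 FPKM in PBS. Atg9a had a log2 fold change of -0.08, and 0.03 without libraries 6 and 8. Wipi2, the paralog that recruits ATG16L1, stood at -0.02, and at 0.14 with the length trend removed.

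Among the conjugation genes 5 of 8 were higher, with a median of 0.07, and 0 reached an unadjusted p under 0.05. Atg4d, a protease that processes ATG8 proteins, was the most abundant of them and had 26.2, 23.5, 31.8, 26.4 and 40.2 FPKM in ammonium acetate, against 29.0, 23.3, 24.0 and 21.5 FPKM in PBS. Ammonium acetate 8 set the mean of Atg4d: its log2 fold change was 0.25 with all libraries (interval -0.08 to 0.59), 0.14 without ammonium acetate 8 and 0.06 without 6 and 8. Atg5, joined to ATG12 to form the conjugation ligase, averaged 7.57 ± 1.49 FPKM in ammonium acetate and 6.53 ± 0.388 in PBS, again with ammonium acetate 8 highest at 9.95 (log2 fold change 0.18, and 0.03 without 6 and 8). Atg3, the E2-like enzyme that loads ATG8 onto lipid, averaged 13.7 ± 1.35 FPKM in ammonium acetate and 12.3 ± 0.922 in PBS (log2 fold change 0.15, interval -0.07 to 0.38), and stood at 0.17 without 6 and 8. Atg12, the ubiquitin-like partner of ATG5, and Atg16l1, which completes the ligase, had log2 fold changes of 0.12 and 0.03. Those of Atg4b, the main ATG8 protease, Atg7, the E1-like enzyme, and Atg10, the E2-like enzyme of ATG12, were -0.02, -0.06 and -0.10, and 0.04, 0.02 and -0.20 without libraries 6 and 8. Atg7 was the lowest of the 8 at 2.48 FPKM over all libraries.

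**Figure D2:**
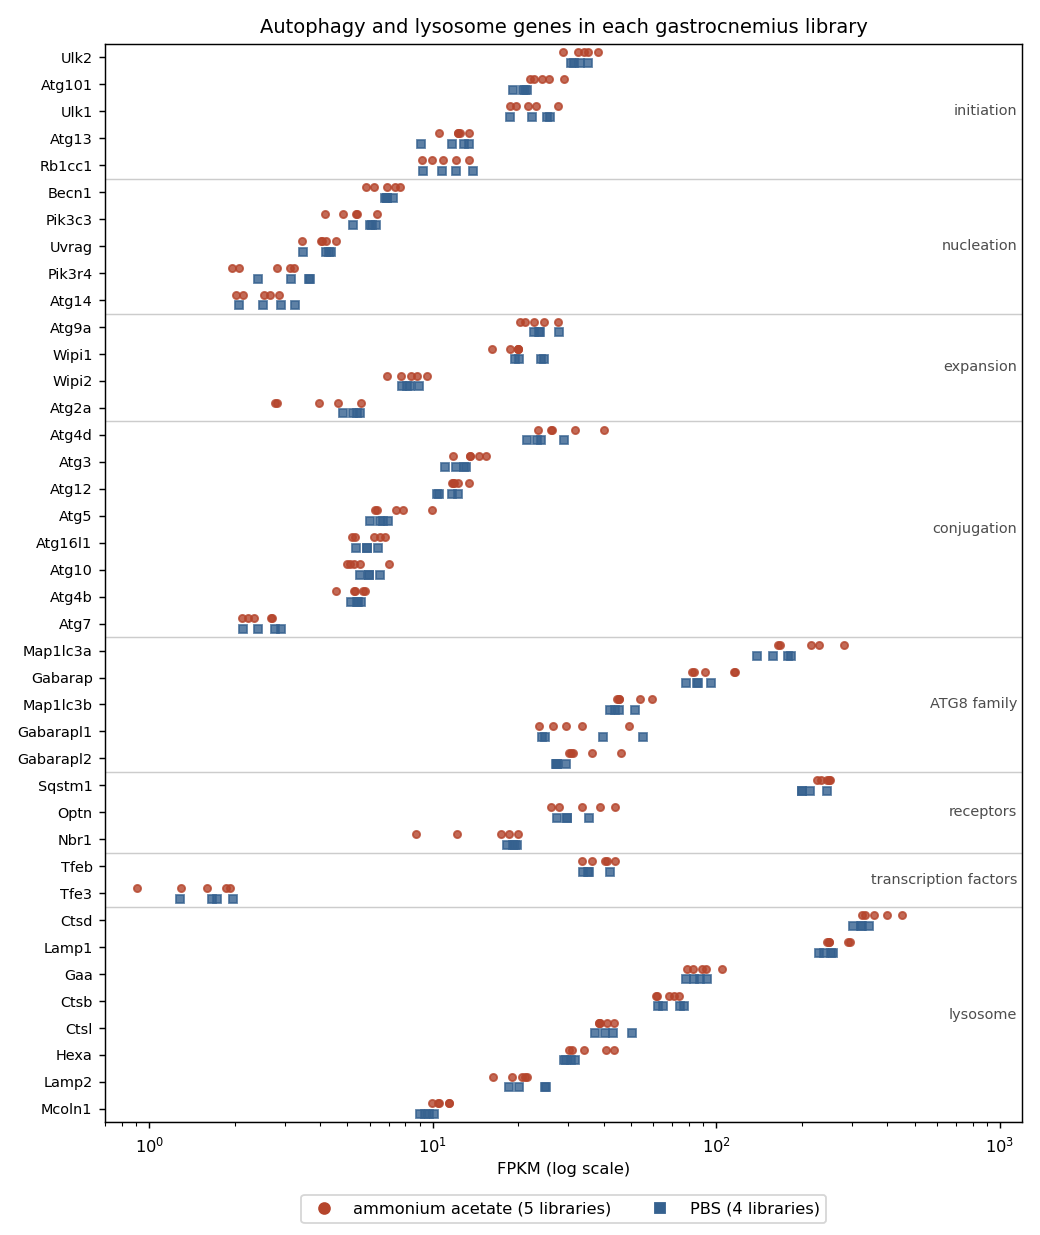
FPKM (log scale, horizontal axis) of each member in the 5 ammonium acetate libraries (circles, upper row of each gene) and the 4 PBS libraries (squares, lower row), grouped by role and ordered by mean level. Levels span from a mean of 1.58 FPKM for Tfe3 to 352 FPKM for Ctsd, and the groups are separate only in Atg101 and Gabarapl2.

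The ATG8 family, whose members coat the autophagosome, had 4 of 5 genes higher in ammonium acetate with a median log2 fold change of 0.16. The count fell to 2 of 5, with a median of -0.01, when libraries 6 and 8 were both left out. It stayed at 4 of 5 without either library alone. With the length trend removed it was 4 of 5 as well, with a median of 0.21. Map1lc3a, LC3A, was the dominant member in every library. It had 168, 165, 230, 215 and 283 FPKM in ammonium acetate, against 179, 184, 139 and 158 FPKM in PBS. Ammonium acetate 6, 7 and 8 exceeded all PBS libraries while 4 and 5 lay within the PBS range. Its log2 fold change was the largest among the 20 higher members at 0.34 (standard error 0.16, interval -0.02 to 0.70, limma adjusted p = 0.527). It was 0.14 without 6 and 8 and 0.21 with the length trend removed.

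Gabarapl2 (GATE-16; ENSMUSG00000031950, chromosome 8, 111940703 to 111953612, plus strand) had 30.1, 31.3, 36.5, 30.7 and 46.2 FPKM in ammonium acetate, against 27.3, 29.4, 27.3 and 27.3 FPKM in PBS. No ammonium acetate library fell within the narrow PBS range, although 30.1 and 29.4 were close, and ammonium acetate 8 was far above the rest. This was a log2 fold change of 0.30 (standard error 0.13, interval 0.03 to 0.58, limma adjusted p = 0.527). With the length trend removed it was 0.24 and its unadjusted p stayed under 0.05, and without ammonium acetate 6 and 8 it was 0.14 and did not.

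Gabarap, the founding GABARAP protein, averaged 97.6 ± 17.0 FPKM in ammonium acetate and 86.3 ± 7.18 in PBS, and libraries 6 and 8 both stood at 116. Map1lc3b, LC3B, the form most often used as an autophagy marker, averaged 49.7 ± 6.50 FPKM in ammonium acetate and 45.7 ± 4.19 in PBS. The log2 fold changes of Gabarap and Map1lc3b were 0.16 and 0.11, and -0.01 for each without 6 and 8. They were 0.06 and 0.21 with the length trend removed. Gabarapl1, known in mouse muscle as a target of FoxO3, was the most variable member within PBS, with a coefficient of variation of 40.5%. It had 23.6, 26.5, 29.6, 49.0 and 33.7 FPKM in ammonium acetate, against 24.9, 55.0, 24.2 and 39.7 FPKM in PBS. High and low values of Gabarapl1 occurred in both groups, and its log2 fold change of -0.11 had the interval -0.67 to 0.45.

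Summed over the 5 genes, FPKM was 348, 359, 465, 424 and 537 in ammonium acetate, against 368, 406, 320 and 349 in PBS. LC3A made up 49.4% ± 2.56 of that sum in ammonium acetate and 45.7% ± 2.06 in PBS, and Gabarap 23.0% ± 2.40 in ammonium acetate and 24.0% ± 2.65 in PBS (SD, n = 5 and 4). LC3B held 11.8% ± 0.967 in ammonium acetate and 12.7% ± 0.966 in PBS, and Gabarapl2 8.21% ± 0.649 in ammonium acetate and 7.76% ± 0.576 in PBS. Shares of Gabarapl1 ranged from 6.26% to 11.6% in ammonium acetate and from 6.77% to 13.6% in PBS.

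**Figure D3:**
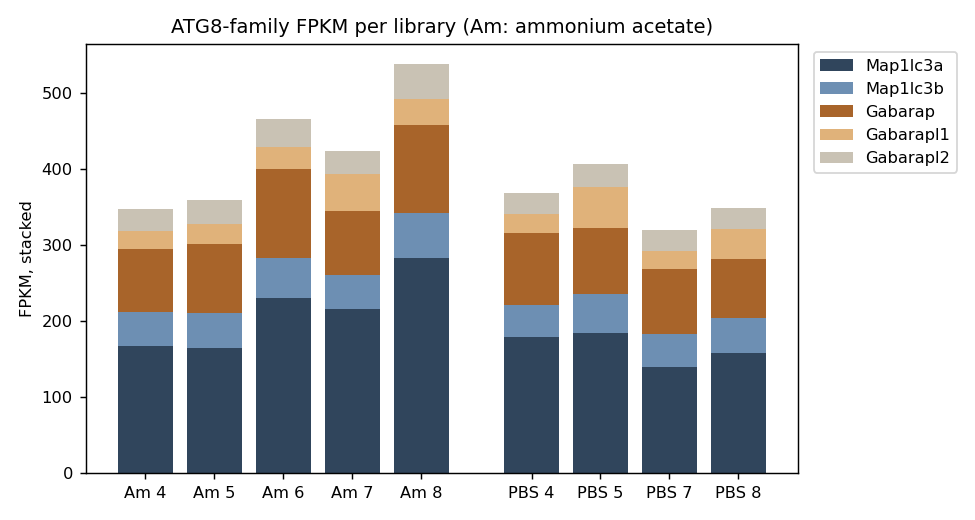
FPKM of the 5 ATG8-family genes stacked per library (vertical axis), with the 5 ammonium acetate libraries (Am) left of the 4 PBS libraries. The sum reaches 537 in ammonium acetate 8 and 465 in ammonium acetate 6, and Map1lc3a is the largest part of every bar.

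The 3 cargo receptors did not share a direction. Sqstm1 (p62, which binds ubiquitin and LC3) had 252, 245, 227, 233 and 249 FPKM in ammonium acetate, against 200, 215, 245 and 200 FPKM in PBS. Only PBS 7 lay within the ammonium acetate range, and the other PBS libraries lay below it. Its log2 fold change was 0.17 (standard error 0.10, interval -0.04 to 0.38, limma adjusted p = 0.527), 0.18 without 6 and 8 and 0.18 with the length trend removed, so it did not depend on those libraries. Without PBS 7 it was 0.23 and its unadjusted p came under 0.05, as it did for 6.81% of all genes. That p was under 0.05 in only 1 of the 19 alternatives. Nbr1, a related receptor, was named here after its values were seen. It had 20.0, 17.4, 8.70, 18.5 and 12.2 FPKM in ammonium acetate, against 18.3, 19.5, 19.2 and 19.8 FPKM in PBS. Libraries 6 and 8 were the 2 lowest and ammonium acetate 4 was the highest of all 9. The log2 fold change of Nbr1 was -0.37 (interval -0.82 to 0.08) and -0.04 without these 2 libraries. Optn, optineurin, a receptor in mitophagy, averaged 34.0 ± 7.46 FPKM in ammonium acetate and 30.6 ± 3.46 in PBS (log2 fold change 0.13).

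**Figure D4:**
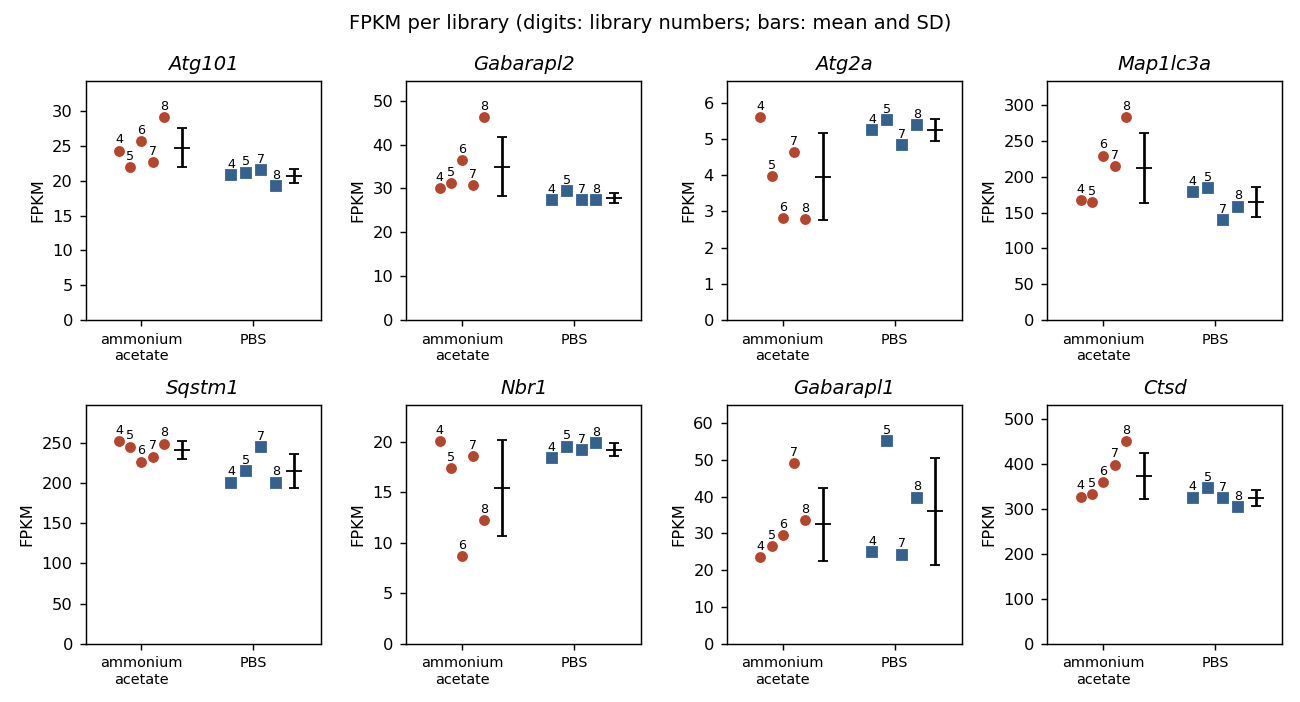
FPKM (vertical axis, from 0) of 8 members in each library, with ammonium acetate (circles) left of PBS (squares), digits giving the library number and bars the mean and SD. Libraries 6 and 8 of ammonium acetate are the 2 lowest for Atg2a and Nbr1, and library 8 is the highest for Atg101, Gabarapl2, Map1lc3a and Ctsd.

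Of the transcription factors that drive lysosomal genes, Tfeb was far more abundant than Tfe3 in this muscle. Tfeb had 43.8, 41.1, 36.4, 33.5 and 40.5 FPKM in ammonium acetate, against 35.4, 33.8, 42.2 and 35.3 FPKM in PBS. The groups overlapped almost entirely, with a log2 fold change of 0.09 (interval -0.15 to 0.32). Tfe3 ranged from 0.905 to 1.93 FPKM in ammonium acetate and from 1.28 to 1.97 in PBS (-0.12, interval -0.51 to 0.27, and 0.09 without 6 and 8). Both factors act mainly by moving into the nucleus, which these data do not measure.

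Lysosomal genes included the most abundant members, and 5 of 8 were higher in ammonium acetate, with a median log2 fold change of 0.09. Ctsd, the aspartic protease cathepsin D, had 327, 334, 360, 398 and 451 FPKM in ammonium acetate, against 325, 346, 324 and 304 FPKM in PBS. Ammonium acetate 6, 7 and 8 lay above the PBS range and 4 and 5 within it. Its log2 fold change was 0.20 (interval -0.06 to 0.45, limma adjusted p = 0.528), and 0.12 without 6 and 8. Hexa, the alpha subunit of beta-hexosaminidase, averaged 35.9 ± 5.93 FPKM in ammonium acetate and 30.3 ± 1.20 in PBS, where ammonium acetate 6 (40.7) and 8 (43.5) stood apart (log2 fold change 0.23, and 0.07 without them). Mcoln1, the calcium channel TRPML1, measured 9.97 to 11.4 FPKM in ammonium acetate and 8.999 to 10.1 in PBS, with a log2 fold change of 0.16 (interval -0.04 to 0.36) and 0.10 without 6 and 8.

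The membrane proteins LAMP1 and LAMP2 lay on opposite sides. Lamp1 averaged 266 ± 25.1 FPKM in ammonium acetate and 245 ± 12.4 in PBS (log2 fold change 0.12, and 0.02 without libraries 6 and 8), and Lamp2, which is needed for the fusion of autophagosomes with lysosomes, averaged 19.7 ± 2.13 FPKM in ammonium acetate and 22.2 ± 3.32 in PBS (-0.16, interval -0.43 to 0.11, and -0.06 without those libraries). Ctsb and Ctsl, the cysteine proteases cathepsin B and L, had log2 fold changes of -0.05 and -0.09, with averages of 67.0 ± 5.48 and 40.1 ± 2.17 FPKM in ammonium acetate and 69.6 ± 7.05 and 42.9 ± 5.62 in PBS. Ctsl, which is part of the transcriptional programme of muscle atrophy in mice, ran from 38.5 to 43.4 FPKM in ammonium acetate and from 37.2 to 50.5 in PBS. Gaa, the acid alpha-glucosidase that degrades glycogen in lysosomes, averaged 89.3 ± 9.89 FPKM in ammonium acetate and 85.5 ± 6.32 in PBS (log2 fold change 0.06, interval -0.17 to 0.28, and 0.15 without libraries 6 and 8).

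Promoter sequences are shown for the members that carry CACGTG, the E-box core that TFEB and TFE3 recognise. It is a feature shared by lysosomal and some autophagy genes. The choice of genes did not use the letters, but a choice by role favours genes that carry them. RefSeq (GRCm38.p6) gave a promoter, 250 bases before to 50 after the start, for 33 of the 40 genes. CACGTG, which reads the same on both strands, was present in 9 of these 33 (27.3%) and in 8.09% of 27025 genes with a promoter in the same table. Those 27025 were taken at any level of expression, while 34 of the 40 members lay above the median level of the tested genes. The shares are therefore not a like comparison. The longer TCACGTGA, which contains the core, was in 3 of 33 (Atg3, Ctsd and Mcoln1) and in 1.12% of all genes. The palindromic CLEAR element, the longer form described for lysosomal genes, was in 0 of 33 and 0.37% of all, and GTAAACA, the FoxO core searched on both strands, was in 0 of 33 and 4.05% of all. Capitals mark CACGTG in the stretches below, each written 5′ to 3′ on the strand of the gene and lying before the RefSeq start.
Lamp1, chr8:13159093-13159158, plus strand: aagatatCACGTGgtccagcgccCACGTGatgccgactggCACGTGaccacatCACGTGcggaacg
Mcoln1, chr8:3500441-3500486, plus strand: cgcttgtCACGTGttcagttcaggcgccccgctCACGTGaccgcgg
Ctsd, chr7:142387913-142387932, minus strand: cgcgtctCACGTGacccgtt
Gaa, chr11:119267816-119267835, plus strand: gtgcgatCACGTGtttgact
Ctsl, chr13:64370744-64370763, minus strand: tagaagcCACGTGctgatct
Atg3, chr16:45158728-45158770, plus strand: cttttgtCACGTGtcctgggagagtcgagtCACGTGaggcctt
Atg5, chr10:44268318-44268337, plus strand: cgcttgcCACGTGgtcttgg
Atg7, chr6:114670957-114670976, plus strand: tggtggtCACGTGtgcagta
Lamp1 held 4 copies between 61 and 15 bases before the start, and Mcoln1 and Atg3 held 2 each in the stretches shown. The Atg7 stretch lies inside the gene as the deposited coordinates place it (114643097 to 114860614), so the RefSeq start used for it is an internal one. The Ctsd stretch shown also lies inside its deposited coordinates (142371148 to 142388038). Those of Lamp1 and Mcoln1 run past the deposited starts (13159135 and 3500457) into the gene. Ctsd had a further copy 245 bases before the start, and the copy in Atg14 does not lie wholly before the start and is not shown. In the data, 6 of the 9 genes with the core were higher in ammonium acetate (median log2 fold change 0.12, from -0.11 for Atg14 to 0.20 for Ctsd), and 11 of the 24 without it (median -0.01, from -0.41 for Atg2a to 0.30 for Gabarapl2). Without ammonium acetate 6 and 8, Atg3 stood at 0.17, Gaa at 0.15, Ctsd at 0.12 and Mcoln1 at 0.10. In that setting Atg5 stood at 0.03, Lamp1 and Atg7 at 0.02, Ctsl at -0.05 and Atg14 at -0.06. Fold change also went with gene length (below), and a link of fold change to the core was not tested. None of the 9 reached an unadjusted p under 0.05, and a match of letters does not show that a factor binds there.

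Shorter members tended to be higher and longer members lower. The 20 members shorter than 3388 bases, the median length of the 40, had 15 genes higher and a median log2 fold change of 0.16, while the 20 longer ones had 5 higher and a median of -0.05. Over all tested genes the medians on the same sides of that length were 0.05 and -0.15, so the split was not particular to these genes. Across the 40 genes Spearman's rho of the log2 fold change with length was -0.58, and across all tested genes -0.49, as a description of genes that share libraries. Without ammonium acetate 6 and 8 the rho was -0.26 over the 40 genes, 14 short and 10 long members were higher, and 24 of 40 were higher in all, where 49.4% of all genes were. With the trend removed, 15 short and 15 long members were higher, 30 of 40 in all, with a median of 0.09 beside 0.01 over all genes, of which 51.6% were higher. Under that setting 1 member, Gabarapl2, had an unadjusted p under 0.05 (2.5%), where 8.77% of all genes did.

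**Figure D5:**
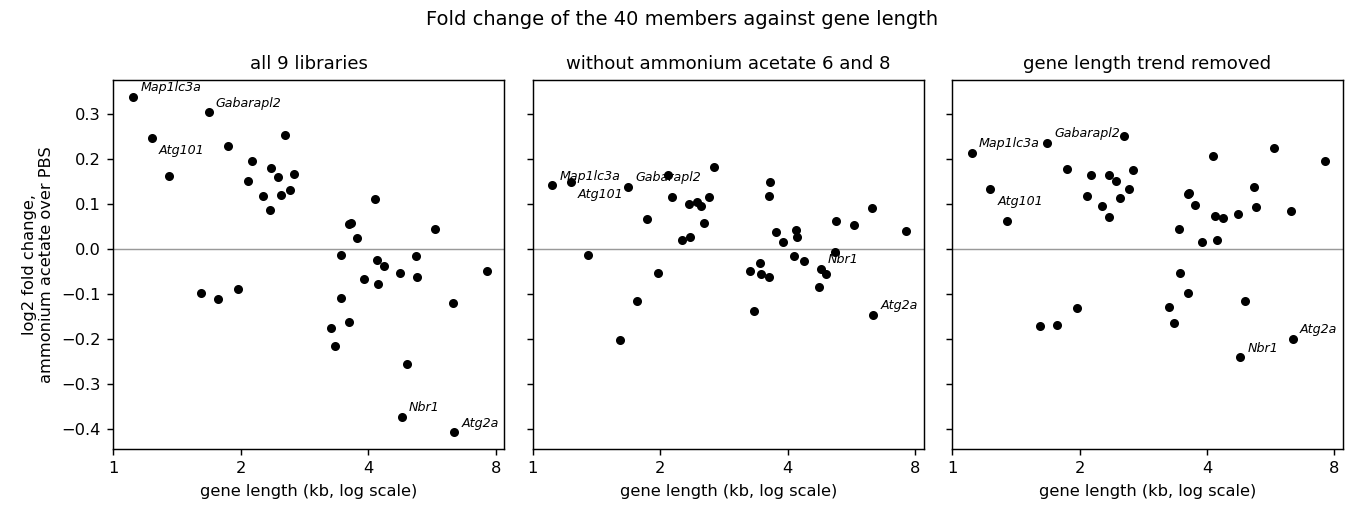
Log2 fold change (ammonium acetate over PBS, vertical axis) of the 40 members against gene length in kb (log scale, horizontal axis), with all 9 libraries, without ammonium acetate 6 and 8, and with each library's length trend removed. The downward slope on the left (rho -0.58) is flatter in the middle (-0.26) and on the right (-0.14), and Atg2a and Nbr1 lie closer to 0 there.

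Single ammonium acetate libraries departed from the PBS range in different directions. In ammonium acetate 6, 11 members lay above the highest PBS value and 17 below the lowest, with median gene lengths of 2128 and 4218 bases. In ammonium acetate 8 these counts were 19 and 6, and in ammonium acetate 4 they were 16 and 3. Ammonium acetate 5 had 5 above and 6 below, and ammonium acetate 7 had 11 above and 7 below. Among all tested genes the share above the PBS range was 22.6% in library 6, 34% in library 8, 18.9% in library 4, 15% in library 5 and 25.5% in library 7. The share below it was 46.3% in library 6, 31% in library 8, 13.8% in library 4, 21.5% in library 5 and 14.6% in library 7.

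Other genes of the pathway, in 6 lists apart from the 40, gave 47 higher and 70 lower of 117 tested, and 0 passed an adjusted p of 0.05. The share higher was 40.2%, where 43.9% of all tested genes were higher, and 7 (5.98%) had an unadjusted p under 0.05, where 8.57% of all genes did. Subunits of the lysosomal proton pump, the V-ATPase, were higher in 14 of 16 cases with a median log2 fold change of 0.19, and in 12 of 16 with a median of 0.09 without ammonium acetate 6 and 8. Their genes were short (median length 2143 bases), and with the length trend removed 13 of 16 were higher with a median of 0.095. Atp6v0d1, a subunit of its membrane sector, had 21.2, 20.9, 25.5, 24.4 and 26.5 FPKM in ammonium acetate, against 20.0, 19.9, 17.2 and 19.9 FPKM in PBS. The groups of Atp6v0d1 did not overlap (log2 fold change 0.29, standard error 0.10, limma adjusted p = 0.527, and 0.20 without libraries 6 and 8). On the other side of the list was Atp6v0a1 at -0.15, and at -0.03 without those libraries.

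Lysosomal enzymes beyond the 8 members lay on the other side: 33 of 39 were lower in ammonium acetate, with a median of -0.16. The share higher was 15.4%, where 43.9% of all tested genes were higher. An unadjusted p under 0.05 was found for 2 of 39 (5.13%), where 8.57% of all genes had one. Without libraries 6 and 8, 30 of 40 were lower, with a median of -0.08. Removing the length trend left 33 of 39 lower, with a median of -0.11 beside 0.01 over all genes. Smpd1, acid sphingomyelinase, was the higher gene of smallest p in this list, with a log2 fold change of 0.11, and 0.03 without those libraries. Macrophage markers lay lower alongside these enzymes, 9 of 9 tested, with a median summed FPKM of 67.2 in ammonium acetate and 92.3 in PBS. Lower too were 10 of 10 endothelial, 9 of 9 fibro-adipogenic, 6 of 7 smooth muscle and pericyte and 5 of 5 erythroid markers. By contrast, 2 of 3 tested neutrophil and 6 of 6 skin markers were higher. The part of these cells in the result was not tested.

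Genes of autophagosome fusion were lower in 10 of 15 cases (median -0.08) and higher in 10 of 15 without libraries 6 and 8 (median 0.06). Fyco1, which links autophagosomes to microtubule motors, had 33.3, 25.0, 14.3, 26.1 and 16.8 FPKM in ammonium acetate, against 29.2, 32.7, 35.9 and 43.8 FPKM in PBS (log2 fold change -0.65, standard error 0.22, limma adjusted p = 0.527). Ammonium acetate 6 and 8 were the lowest. The log2 fold change of Fyco1 was -0.32 without them and -0.41 with the length trend removed. Rab7, the small GTPase of late endosomes, stood at 0.23, and at 0.19 without those libraries. The remaining autophagy core genes (7 of 16 higher, median -0.005, from Wdfy3 at -0.41 to Vmp1 at 0.27), mitophagy and other receptors (6 of 11 higher, median 0.05, with Fkbp8 at 0.21 and Calcoco1 at -0.21) and other lysosomal membrane proteins (9 of 20 higher, median -0.04) showed no common direction. In that last list Tmem192 averaged 18.4 ± 4.09 FPKM in ammonium acetate and 13.7 ± 1.49 in PBS (log2 fold change 0.39, limma adjusted p = 0.527, and 0.19 without libraries 6 and 8), and Tmem175, a lysosomal ion channel, 1.81 ± 0.295 FPKM in ammonium acetate and 2.26 ± 0.245 in PBS with groups that did not overlap (-0.26, and -0.34 without those libraries). Without libraries 6 and 8, Wdfy3 stood at -0.07, Vmp1 at 0.13, Fkbp8 at 0.02 and Calcoco1 at -0.07.

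Neither the strand setting nor the treatment of shared reads was stated in the labels, so reads of overlapping genes may be mixed. In GENCODE M21, on the same build, 8 of the 40 members share over 10% of their exonic bases with a gene on the other strand. They include Becn1 (43.9%, with Cntd1), Gabarapl1 (28.3%), Ctsl (26.9%), Atg4d (19.3%, with Kri1) and Sqstm1 (17.3%, with Mrnip). On the same strand, 3 members overlap another annotated gene: Ctsd with 34.4% of its exonic bases (Gm49369), Atg9a with 31.8% (Gm29253) and Ctsl with 6.09% (a processed pseudogene).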

How the data were processed

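Gastrocnemius RNA was sequenced from 5 ammonium acetate and 4 PBS libraries. The authors deposited 1 table of FPKM values with gene lengths and coordinates. Per the submitters' processing notes, STAR, TopHat, HTSeq and DESeq2 are named with the mm10 build, and versions and roles are not stated there. FPKM times length gave whole reads within 0.05 read for 100% of values above 0. The test was limma 3.58.1 (R 4.3.3) with an level-dependent prior variance. It took log2(FPKM + 0.5) of the 11337 genes that averaged 0.5 FPKM or more, and p-values were adjusted by Benjamini-Hochberg over all of these (threshold 0.05). Such fold changes understate those of low genes. The script was tested on simulated data. Full values are given for members with an unadjusted p under 0.05 or groups that do not overlap and for the most abundant member of each role, and, from each other pathway list, for the gene of smallest p in each direction; Nbr1, Gabarapl1 and the genes set beside it were added after their values were seen. 1 gene that this rule names is not reported here. The members, the lists and the alternatives were chosen with earlier results of these data known. Alternatives covered the pseudocount, filter, scaling, voom on the reads (0 genes called at the threshold), a replicate block, the gene length trend (lowess, span 0.3) and libraries left out. Tables and figures used Python 3.11.15, pandas 2.3.3 and matplotlib 3.10.9.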

Additional observations from a re-analysis of the deposited data

Results flagged for a closer look

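Of 80 sets of values (40 members in each group), 2 held a library far from the rest by Dixon's criterion at the 95% level, where chance alone flags about 1 in 20. Atg10 stood at 7.002 FPKM in ammonium acetate library 8, while the other 4 ammonium acetate libraries lay between 4.99 and 5.54. Gabarapl2 stood at 29.4 FPKM in PBS library 5, while the other 3 PBS libraries lay at 27.3, a gap of about 2 FPKM in a group of very small spread.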

How the results depend on the processing

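Under each of the 19 alternatives 0 genes and 0 members passed the adjusted threshold. Members with an unadjusted p under 0.05 numbered 3 (8.57% of all genes). The count was 0 with the replicate block (2.29% of all genes), 0 with ammonium acetate 6 and 8 left out (2.24%) and 1 with the gene length trend removed (8.77%). PBS has no library 6, so under the block ammonium acetate 6 added nothing to the group difference. The block therefore gave the same log2 fold changes of the members as leaving out ammonium acetate 6 (median 0.05 in both). With 1 library left out it ran from 0 to 6: 6 without ammonium acetate 4 (15.2%), 0 without 6 (4.46%), 1 without 8 (3.63%), 1 without PBS 4 (12.2%), 2 without PBS 5 (4.66%), 2 without PBS 7 (6.81%) and 0 without PBS 8 (2.7%). The share of all genes moved as well. The median log2 fold change of the members was 0.01, 0.095 with the length trend removed, and from -0.03 to 0.05 with 1 library left out. Same-numbered libraries did not deviate together (correlations of deviations from -0.34 to -0.07), so the numbers were not taken as pairs. Of the 40 members 24 had the same sign throughout. Signs changed in 16 others, whose log2 fold change as reported was at most 0.16 in size. Median-ratio scaling gave Becn1 0.0059, Uvrag 0.030, Wipi2 0.028 and Atg4b 0.019. The replicate block, like the loss of ammonium acetate 6 alone, gave Rb1cc1 0.016, Becn1 0.014, Wipi2 0.044, Atg4b 0.027 and Tfe3 0.0038. Leaving out ammonium acetate 6 and 8 gave Ulk1 0.064, Rb1cc1 0.041, Atg9a 0.027, Atg4b 0.043, Atg7 0.015, Map1lc3b -0.014, Gabarap -0.012 and Tfe3 0.092. Removing the length trend gave Ulk1 0.094, Rb1cc1 0.20, Becn1 0.070, Uvrag 0.045, Wipi2 0.14, Atg9a 0.020, Atg4b 0.074, Atg7 0.016, Tfe3 0.086 and Ctsb 0.078. With 1 library left out the log2 fold change ran from -0.057 to 0.12 for Atg13, from -0.017 to 0.072 for Atg16l1, from -0.050 to 0.027 for Atg4b, from -0.080 to 0.014 for Becn1, from -0.27 to 0.12 for Gabarapl1, from -0.14 to 0.043 for Rb1cc1, from -0.21 to 0.0038 for Tfe3, from -0.0013 to 0.10 for Ulk2, from -0.079 to 0.037 for Uvrag and from -0.068 to 0.044 for Wipi2. The cause was not tested. Tfe3 was not tested at a minimum mean of 2 FPKM.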

Other observations

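Gabarapl1, the most variable member within PBS, was compared with a few other genes after its values had been seen, and the values are given with no test of likeness. It was highest in PBS 5 (55.0 FPKM), ammonium acetate 7 (49.0) and PBS 8 (39.7). The same 3 libraries were the highest of the 9 for Hadh, a mitochondrial enzyme of fatty acid oxidation, at 67.8, 56.4 and 60.1 FPKM, and for Decr1, another enzyme of that pathway, at 56.4, 47.0 and 47.4. Pdk4, the kinase that restrains pyruvate oxidation, stood at 602 FPKM in ammonium acetate 7 and 543 in PBS 5, and between 48.5 and 183 in the other 7 libraries. Myh2, the myosin of oxidative fast fibres, measured 511 and 563 FPKM in PBS 5 and PBS 8 and 442 in ammonium acetate 7. Myh2 was also high in PBS 4 (444), where Gabarapl1 was low (24.9). Atp5b, Myh1, Myh7 and Myh4 were looked at too. PBS 5, PBS 8 and ammonium acetate 7 were the highest libraries for Atp5b and Myh1. Myh7 was higher in ammonium acetate 5 (80.2 FPKM) than in ammonium acetate 7 (64.5). Myh4 was highest in ammonium acetate 4 (8796), where Gabarapl1 was lowest (23.6).

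Foxo3, the transcription factor upstream of Gabarapl1 in mouse muscle, averaged 3.26 ± 0.706 FPKM in ammonium acetate and 4.64 ± 0.974 in PBS (log2 fold change -0.45, limma adjusted p = 0.527, and -0.26 without ammonium acetate 6 and 8). The ubiquitin ligases Fbxo32 and Trim63, other targets of FoxO factors, lay on opposite sides: Fbxo32 averaged 45.0 ± 8.39 FPKM in ammonium acetate and 54.0 ± 12.0 in PBS, and Trim63 124 ± 15.5 in ammonium acetate and 116 ± 20.6 in PBS.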
